A study of Mus musculus with 61 samples.

Results

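RNA of unstimulated spleens was compared between mice carrying the Y665F change in Stat5b and wild-type (WT) mice. The libraries were chosen by their labels: tissue Spleen, no culture step, and genotype Stat5b Y665F (7 libraries) or WT (4 libraries), which is 11 of the 61 libraries of the series. All 11 mice were labelled C57BL/6 (C57BL/6N in the study's methods) and 2 months old, none of the cells had been given a cytokine in culture, and the study's methods describe males. The Y665F allele was introduced into the germ line with Cas9 protein, a guide RNA and a single-stranded donor, so every cell of the animal carries it. The labels do not say whether the Y665F animals had 1 or 2 copies of the allele. The samples are titled splenocytes, while the study's methods name frozen spleen tissue, so RNA of whole spleen with its red pulp, vessels and capsule was read here as the material. Spleens of a further genotype, Y665H (5 libraries), entered the fit to share the estimate of the spread and are given only as a reference level.

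STAT5B is a transcription factor that is phosphorylated by Janus kinases after cytokines such as IL-2, IL-7, IL-15, growth hormone or thrombopoietin bind their receptors. Phosphorylated STAT5 dimerises through its SH2 domain, the domain that holds the tyrosine changed here, and binds DNA at TTCNNNGAA motifs. Among its best known targets are genes that limit the pathway again, such as Cish and the Socs family, and the IL-2 receptor chains. In the spleen the pathway maintains regulatory T cells, memory CD8+ T cells and natural killer (NK) cells, and it also acts in megakaryocytes and granulocyte precursors.

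The edit itself is shown here because it defines the group. Both sequences lie in exon 16 of the 19 exons of Stat5b, in coding sequence, on mouse build GRCm38. The guide matched the plus strand at chr11:100787287-100787309, and its PAM is in capitals. The donor is written in the sense of the gene, which lies on the minus strand, covers chr11:100787232-100787364, and has its changed bases in capitals.
Guide: tgaggtaattcaggtcccccAGG
Donor: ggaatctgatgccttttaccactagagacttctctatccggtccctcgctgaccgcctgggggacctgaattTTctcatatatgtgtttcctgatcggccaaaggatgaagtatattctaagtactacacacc
Counted from the 5′ end of the donor, the changes were A73T and C74T. Together they turn the codon TAC, tyrosine, into TTT, phenylalanine (Y665F). The study's methods also name a silent C-to-G change in the donor that removes the PAM. The donor as printed in the study's supplement does not show that change, and the difference was not resolved here.

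Reads assigned to genes numbered 26729520 to 33739673 in the WT libraries and 24203179 to 38306655 in the Y665F libraries. Values are given as CPM, the reads on a gene scaled to a common total of reads on genes, and a difference as the log2 fold change of Y665F against WT with its standard error (SE). WT libraries 1 and 2 stood apart from the other 9. On the first principal component of the 11 libraries, which held 45.2% of the variance, they lay at -39.4 and -31.8, and the others between -8.67 and 22.7. Their deviations from the mean of the spleen libraries followed the GC content of the transcripts, with Spearman's rho over genes of -0.72 and -0.61, while the other WT libraries had 0.19 and 0.00029 and the Y665F libraries -0.27 to 0.51. The log2 fold change moved with GC content too, with rho = 0.54 over 13696 genes, and in 5 equal bins of genes by GC content the median went from -0.14 in the bin with the least GC to 0.27 in that with the most. The precursor of ribosomal RNA, Rn45s, had 2696 to 5953 CPM in WT and 9797 to 26917 CPM in Y665F, although ribosomal RNA had been depleted, and its difference did not pass with WT libraries 1 and 2 left out (1.54, adjusted p = 0.18). The Y665H spleens had 11382 to 51781 CPM of Rn45s, above every WT library as well. For these reasons, counts over the gene lists and values of many named genes are also given with a correction of each library for GC content or with WT libraries 1 and 2 left out. The second leaves 2 WT libraries, and with fewer samples fewer genes pass at the same effect size. Effect sizes moved as well, for example down for Cish (1.81 to 1.49) and up for Gzmb (1.47 to 1.66). The part of GC content and of the ribosomal precursor in the differences was not tested beyond these values.

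**Figure D1:**
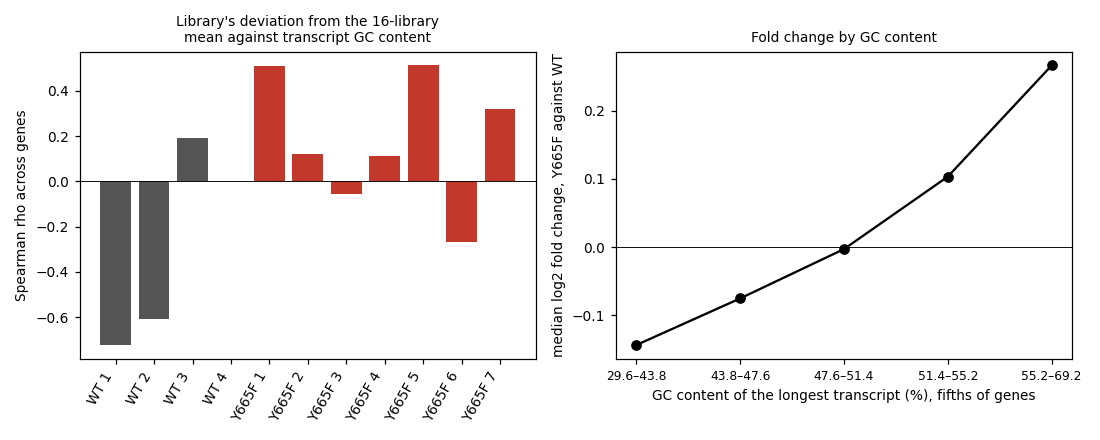
Left: for each library, Spearman's rho across genes between the GC content of the longest transcript and the library's log2 deviation from the mean of the 16 spleen libraries. Right: median log2 fold change, Y665F against WT, in 5 equal bins of 13696 genes by GC content (percent). WT libraries 1 and 2 had the most negative rho, and the median fold change rose from -0.14 to 0.27 over the bins.

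Of 19418 genes tested with edgeR's quasi-likelihood test, 111 were called higher (0.572%) and 122 lower (0.628%) in Y665F spleens where the Benjamini-Hochberg adjusted p was below 0.05 and the level at least doubled or fell to the same degree (log2 fold change beyond 1 in size). Without the fold minimum, 1094 genes were higher (5.63%) and 1279 lower (6.59%), and the latter pair of percentages is the background for the counts of genes that rose or fell in each gene list below. In 826 genes (4.25%) every Y665F library was above every WT library, and in 1164 (5.99%) every one was below. The median log2 fold change over all genes was -0.0043. With the GC correction 79 genes were called higher and 111 lower, of which 68 and 93 were called without it too. With WT libraries 1 and 2 left out the calls were 37 and 41, of which 33 and 35 were shared. In whole tissue, more or fewer cells of a type cannot be told apart from more or less RNA of a gene per cell, and this holds for every value below.

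The edited gene was measured first. Stat5b had 86.1, 97.4, 108 and 114 CPM in the WT libraries, and 109.9, 123 and 138 CPM as the lowest, median and highest of the Y665F libraries. The groups overlapped, and the log2 fold change of 0.27 ± 0.082 passed the test narrowly (adjusted p = 0.0400, edgeR) and did not with WT libraries 1 and 2 left out (0.15, adjusted p = 0.516). Reads on Stat5b do not separate the edited from the WT allele in these counts. Its neighbour and paralogue Stat5a had a log2 fold change of 0.25 ± 0.075, which became -0.0067 with the GC correction (adjusted p = 0.964). Of 17 components of the JAK-STAT pathway, 3 rose and 0 fell, with a median of 0.097. Beside both Stat5 genes, the one that rose was Jak3, the kinase bound to the common gamma chain, at 0.62 ± 0.17 (adjusted p = 0.0226). None of the 17 passed with WT library 1, WT library 2 or both left out.

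Feedback genes and other known STAT5 targets were higher. Of 29 in this list, 18 rose and 0 fell, and the median log2 fold change was 0.53. With the GC correction 16 rose, and with WT libraries 1 and 2 left out 8 did. Cish, which encodes an SH2 protein that binds activated cytokine receptors and damps STAT5 signalling, had 2.44, 3.17, 4.62 and 4.98 CPM in WT libraries 1 to 4. In Y665F spleens its lowest, median and highest values were 10.8, 13.2 and 15.6 CPM. The lowest Y665F library was thus above the highest WT library, and the level was 3.50-fold that of WT (log2 fold change 1.81 ± 0.17, adjusted p = 8.45e-06, edgeR). Socs2, another suppressor of cytokine signalling, had 19.3, 20.02, 14.6 and 19.7 CPM in WT and 27.1, 31.7 and 33.7 CPM in Y665F. These groups did not overlap either (0.76 ± 0.10, adjusted p = 0.000246).

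Other members of the list were smaller in their change. Socs1 rose by 0.95 (adjusted p = 0.0205) and Socs3 by 0.60 (adjusted p = 0.00742) in log2 units. Ccnd2, a D-type cyclin, rose from a mean of 299 to 467 CPM (0.64 ± 0.068, adjusted p = 2.70e-05). The kinases Pim1 and Pim2 rose by 0.43 and 0.50, Myc by 0.59, and the survival factor Bcl2 by 0.44. The cytokine gene Osm rose by 0.56, from a mean of 4.86 to 7.14 CPM. Among the 12 receptors of the gamma chain family and related genes, 2 rose and 2 fell. The former were Il2ra and Il2rb (0.86 ± 0.18 and 0.95 ± 0.13), the inducible alpha chain and the shared beta chain of the IL-2 receptor. With WT libraries 1 and 2 left out Il2ra had 0.97 and did not pass (adjusted p = 0.0528), nor did it with the replicate number as a block (adjusted p = 0.0624), and 1 of the 12 rose and 1 fell. Il9r, the receptor chain for IL-9, fell from 35.9 ± 7.71 to 19.8 ± 2.79 CPM (-0.86 ± 0.12, adjusted p = 0.000437). Tslp, the cytokine that shares a receptor chain with IL-7, fell by 0.78 on the log2 scale from a mean near 1 CPM (adjusted p = 0.0372). Il7r stood at 0.20 ± 0.11 and did not pass the test (adjusted p = 0.235).

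**Figure D2:**
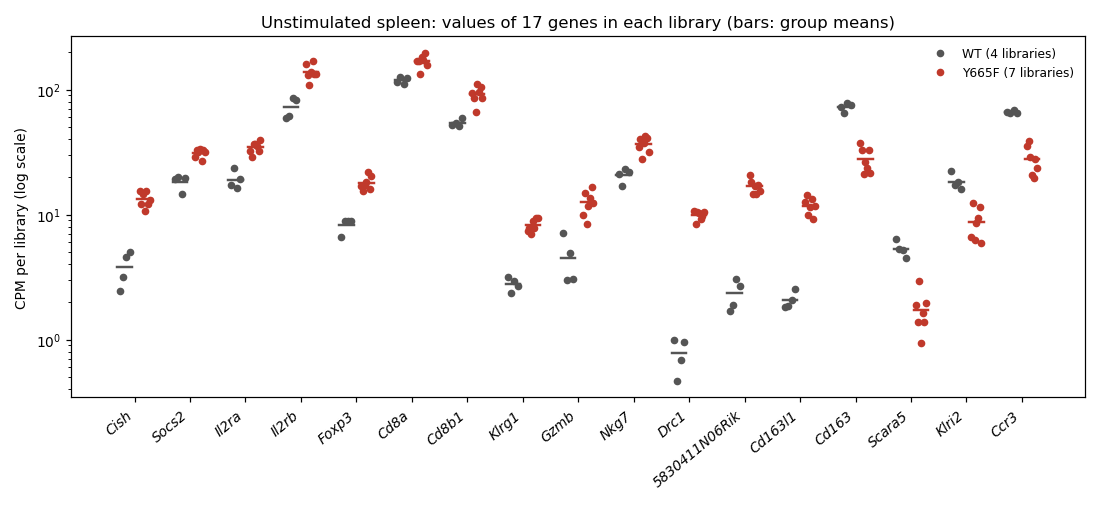
CPM (log axis) of 17 genes in each WT library (grey, 4) and Y665F library (red, 7), with bars at the group means. Cish, Klrg1, Drc1, 5830411N06Rik and Cd163l1 lay higher in every Y665F library than in any WT library, and Cd163, Scara5, Klri2 and Ccr3 lower.

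Genes that mark T cells as a whole were higher. Of 12 pan T cell genes, 8 rose and 0 fell, with a median log2 fold change of 0.66. Their summed level was 738 to 877 CPM in the WT libraries, and its lowest, median and highest values in Y665F were 960.0, 1215 and 1338 CPM, so that the groups did not overlap. Zap70, the kinase downstream of the T cell receptor, rose from 15.9 ± 2.96 to 31.2 ± 5.03 CPM (SD, n = 4 and 7; log2 fold change 0.97 ± 0.16, adjusted p = 0.00119, edgeR). The receptor subunits Cd3e and Cd3d rose by 0.83 and 0.60, and Lck, the coreceptor-bound kinase, by 0.77. After GC correction 10 of the 12 rose, and with WT libraries 1 and 2 left out 2 did, at a median of 0.59. Because these genes moved together, the T cell genes below are also given scaled to the reads on the pan T cell genes, written as per T cell reads. This scale divides reads from all cells of the spleen by T cell reads, which rose in Y665F. A gene expressed in other cells as well can thus fall on it without a change in T cells.

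Among T cell subsets the coreceptors of CD8+ cells rose and that of CD4+ cells did not pass the test. Cd8b1 had 52.5, 54.1, 51.5 and 59.8 CPM in WT and 66.2, 94.3 and 110.2 CPM in Y665F. Every Y665F library was above every WT library (0.76 ± 0.12, adjusted p = 0.00116). Cd8a rose by 0.50 ± 0.099, and Runx3, the factor of the CD8 lineage, by 0.43. Without WT libraries 1 and 2, 1 of the 5 coreceptor and lineage genes passed, against 3, and Cd8a had 0.53 (adjusted p = 0.0535). With the GC correction 2 of the 5 passed, Cd8a (0.56) and Cd8b1 (0.74), and the median of the 5 was 0.26, against 0.50 without it. Cd4 had 105 to 125 CPM in WT and 115 to 166 CPM in Y665F, with overlap (0.32 ± 0.12, adjusted p = 0.0938). Per T cell reads, Cd8b1 had 0.23, Cd8a -0.015 and Cd4 -0.21, and of these Cd4 passed the test (adjusted p = 0.0444).

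The effector and memory genes of CD8+ T cells divided. Of 32 such genes, 10 rose and 2 fell, with a median of 0.19. On the scale per T cell reads 3 rose and 12 fell, with a median of -0.34, and with WT libraries 1 and 2 left out 5 rose and 0 fell. Klrg1, an inhibitory receptor of terminally differentiated effector cells, had 3.15, 2.34, 2.94 and 2.71 CPM in WT and 6.96, 7.85 and 9.40 CPM in Y665F. It was 2.96-fold higher with no overlap (log2 fold change 1.56 ± 0.16, adjusted p = 1.60e-05), and remained so per T cell reads (1.03, adjusted p = 7.27e-05). Gzmb, the cytotoxic protease granzyme B, had 7.11, 3.02, 4.93 and 3.06 CPM in WT and 8.42, 12.3 and 16.7 CPM in Y665F. It was 2.77-fold higher (1.47 ± 0.26, adjusted p = 0.00163), also per T cell reads (0.92, adjusted p = 0.0162). Gzmm, another granzyme, rose from 2.09 ± 0.423 to 4.33 ± 0.249 CPM (1.04 ± 0.14), and fell short of the fold minimum with the GC correction (0.85) or with WT libraries 1 and 2 left out (0.87), at adjusted p = 0.000488 and 0.0211. Smaller rises were measured for Nkg7 (0.80), Ly6c2 (0.90), the chemokine Ccl5 (0.77), the transcription factor Tbx21 (0.64), Cxcr3 (0.60) and Il18r1 (0.58). Gzma, granzyme A, had 25.0 to 37.7 CPM in WT and 9.93 to 43.8 CPM in Y665F and did not pass (-0.16 ± 0.33, adjusted p = 0.795). Klrd1 (-0.026 ± 0.11) and Il12rb2 (-0.16 ± 0.10) did not pass either, but per T cell reads both were lower (-0.54, adjusted p = 0.00447, and -0.68, adjusted p = 0.00198). Reads from NK and other cells are not separated from those of T cells here. The scaled falls of this list are therefore not levels per T cell. The integrin chain gene Itga1 fell by 0.60 and Zeb2 by 0.25 on the log2 scale.

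Few genes of naive T cells passed the test. Of 15, 2 rose (Tcf7 at 0.55 and Dusp10 at 0.38) and 0 fell, and with WT libraries 1 and 2 left out none passed. Ccr7, which guides cells to T cell zones, had 0.37 ± 0.13 (adjusted p = 0.0815). Per T cell reads, 10 of the 15 fell and 0 rose, and Il7r was lower as well (-0.32, adjusted p = 0.0172). On this scale Ccr7 had -0.16, which did not pass (adjusted p = 0.149). The 15 genes summed to 2570 to 3248 CPM in WT, above the 738 to 877 CPM of the pan T cell genes. Which cells these reads came from was not tested, so the falls are not a measure of naive T cells.

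Regulatory T cell genes were higher in most cases. Of 22, 13 rose and 2 fell, with a median of 0.48. Foxp3, the transcription factor that defines these cells, had 6.67, 8.82, 8.83 and 8.89 CPM in WT and 15.3, 17.3 and 21.9 CPM in Y665F. It was 2.17-fold higher with no overlap (1.12 ± 0.15, adjusted p = 0.000319), and per T cell reads it was still higher (0.59, adjusted p = 0.000568). With the GC correction it had 0.96 (adjusted p = 0.000285), just under the fold minimum. Itgae, the integrin chain CD103, rose from 19.4 ± 0.750 to 35.7 ± 3.21 CPM (0.88 ± 0.081, adjusted p = 8.45e-06). Ctla4, an inhibitory receptor, rose by 0.77, Lrrc32, which holds latent TGF-beta on the surface, by 0.75, and Ikzf2 by 0.43. Ccr8 rose by 1.34 from a mean of 0.515 ± 0.260 CPM, a level at which WT libraries 1 and 2 were the lowest, and did not pass without them (0.86, adjusted p = 0.375). The members that fell, Entpd1 (-0.42) and Nrp1 (-0.18), are expressed in other cells of the spleen too. With the GC correction 13 rose and 1 fell, and with WT libraries 1 and 2 left out 5 and 0. The list as a whole had no common direction per T cell reads, with 5 of the 22 higher, 4 lower and a median of -0.037. Il2ra, Tnfrsf4, Tnfrsf9, Tnfrsf18 and Foxp3 belong to this list and to that of the STAT5 targets.

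**Figure D3:**
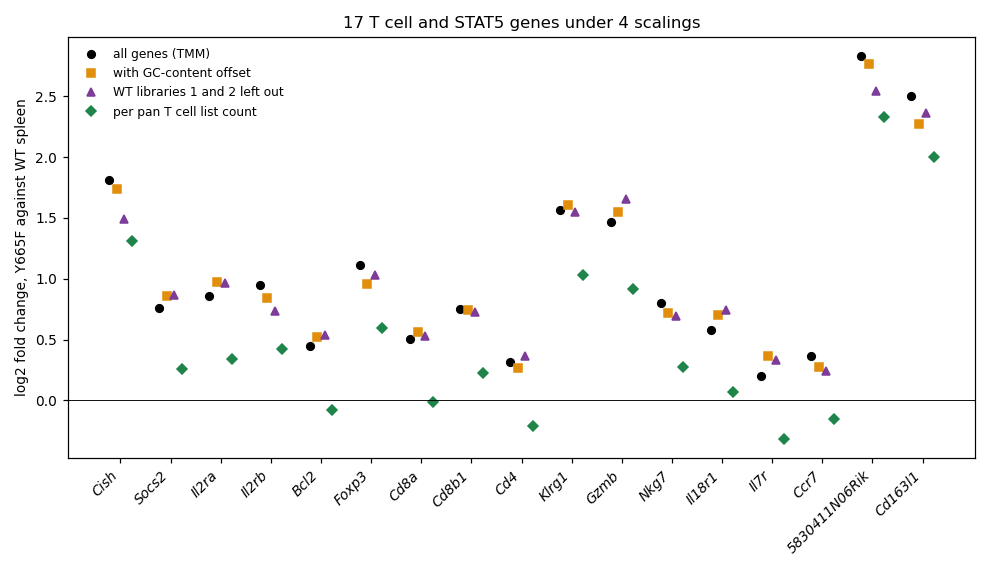
Log2 fold change, Y665F against WT spleen, of 17 T cell and STAT5 genes with library factors over all genes (black), with the GC-content correction (orange), with WT libraries 1 and 2 left out (purple) and per read on the pan T cell genes (green). Per T cell reads, 5830411N06Rik, Cd163l1, Cish, Klrg1, Gzmb and Foxp3 remained above 0.5, while Il7r, Cd4, Ccr7, Bcl2 and Cd8a were below 0.

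Per T cell reads, the STAT5 target genes had no common direction. Of its 29 genes 6 rose and 9 fell on this scale, with a median of 0.013, although not all of its members are T cell genes. Cish, at 1.31 (adjusted p = 6.11e-05), Il2rb at 0.42 and Il2ra at 0.34 still passed. Socs2 had 0.26 and did not (adjusted p = 0.114), and Bcl2 had -0.077 (adjusted p = 0.520).

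A pair of neighbouring genes for scavenger receptors of gamma-delta T cells had the largest changes among the T cell genes. They are Cd163l1 (Scart1, chr7:140218267-140231145) and 5830411N06Rik (Scart2, chr7:140247284-140300736), 16138 bases apart on the plus strand. Scart2 had 1.70, 1.91, 3.07 and 2.71 CPM in WT and 14.7, 16.8 and 20.8 CPM in Y665F. Scart1 had 1.82, 1.87, 2.08 and 2.54 CPM in WT and 9.28, 11.7 and 14.3 CPM in Y665F. The lowest Y665F library was several times the highest WT library for both, with fold changes of 7.10 (log2 2.83 ± 0.17, adjusted p = 2.22e-08) and 5.67 (log2 2.5 ± 0.17, adjusted p = 1.25e-07, edgeR). They are paralogues, and reads that both share would not separate them. Per T cell reads their log2 fold changes were 2.33 and 2.00. Of the 11 innate-like and gamma-delta T cell genes tested, these 2 rose, and 2 fell: Zbtb16, the factor of innate-like T cells (-0.66, adjusted p = 0.00211), and Ccr6 (-0.39, adjusted p = 0.0239). The median of this list was -0.037, and per T cell reads 2 of the 11 rose and 6 fell.

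NK cell genes were lower where they changed. Of 16 tested, 0 rose and 4 fell, and the median was -0.60. The summed level was 247 to 305 CPM in WT and 157 to 272 CPM in Y665F, with overlap. In the Y665H spleens it was 145 to 196 CPM, below every WT library, so the lower level was not particular to Y665F. Klri2, a lectin-like receptor of NK cells, had 22.2, 17.3, 18.3 and 15.9 CPM in WT and 5.94, 8.54 and 12.4 CPM in Y665F. It was 2.13 times lower with no overlap (-1.09 ± 0.19, adjusted p = 0.00179; -0.92, adjusted p = 0.00508, with the GC correction and -0.98, adjusted p = 0.0564, with WT libraries 1 and 2 left out). In the Y665H spleens Klri2 had 6.49 to 12.3 CPM, below every WT library too. Ncr1, the activating receptor NKp46, fell by 0.86 on the log2 scale (adjusted p = 0.0283), and Fcgr3 and Klra1 fell by 0.59 and 0.66. After GC correction 2 of the 16 passed, and with WT libraries 1 and 2 left out none did, at a median of -0.53.

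Of the remaining T cell lists, T helper cytokines had 0 genes of 14 past the test. Checkpoint genes had 3 of 16 higher (Ctla4, Tigit and Nr4a1) and 4 lower, of which Havcr2 was at -0.43 and Btla at -0.39. Chemokine receptors had 4 of 19 higher and 4 lower. Those that rose, Ccr8, Ccr4 (0.94), Gpr15 (0.84) and Cxcr3, are receptors of T cells. Those that fell were Ccr3, Xcr1, Ccr6 and Cxcr5, receptors of eosinophils, cross-presenting dendritic cells and B cells among others. The falls of both lists did not pass with WT libraries 1 and 2 left out, and 1 checkpoint gene and 2 chemokine receptors then rose.

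Neutrophil granule genes showed large changes with a wide spread. Of 18, 8 were called higher and 0 lower, beside 0.572% and 0.628% of all genes tested. The list's median log2 fold change was 1.64. Mpo, the myeloperoxidase of the primary granules, had 10.4, 7.49, 17.01 and 8.71 CPM in WT and 26.1, 32.1 and 57.5 CPM in Y665F. It was 3.60-fold higher (log2 fold change 1.85 ± 0.49, adjusted p = 0.0218), while the Y665H spleens ranged over 8.05 to 94.9 CPM. The serine proteases Prtn3 and Elane were 4.48-fold and 3.91-fold higher, and the others called were Ctsg, Fcnb, Camp, Ltf and Ngp. In the Y665H spleens the medians of Prtn3, Elane and Fcnb were 7.27, 10.6 and 7.76 CPM. Those of Y665F were lower, at 3.78, 5.19 and 6.00 CPM. The summed level of the list was 298 to 452 CPM in WT, 530 to 1242 CPM in Y665F and 201 to 1967 CPM in Y665H. High levels were thus not particular to Y665F. S100a8, an abundant protein of mature neutrophils, had 55.1 ± 13.1 CPM in WT and 103 ± 34.2 CPM in Y665F and did not pass (adjusted p = 0.235). Most of these genes belong to promyelocytes and myelocytes rather than to blood neutrophils. After GC correction 4 of the 18 passed, and with the replicate number as a block 1 did. With WT library 1, WT library 2 or both left out none passed. With both left out the median was 1.34, and Mpo had 1.62 (adjusted p = 0.301, edgeR).

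Few genes of basophils and eosinophils passed the test. Prss34, the basophil protease mMCP-11, had 0.593, 0.396, 0.744 and 0.641 CPM in WT and 2.19, 2.66 and 4.70 CPM in Y665F. It was 5.17-fold higher with no overlap (2.37 ± 0.36, adjusted p = 0.000619), and passed with WT libraries 1 and 2 left out (2.17, adjusted p = 0.0413). Mcpt8, the other basophil protease of the list, was 3.19-fold higher from a mean of 0.644 ± 0.227 CPM (adjusted p = 0.0150), and without those libraries it had 1.84 (adjusted p = 0.126). The other 10 genes tested of this list did not pass. Ccr3, the eotaxin receptor of eosinophils, had 66.3, 65.1, 68.4 and 65.4 CPM in WT and 19.6, 27.7 and 38.7 CPM in Y665F. It was 2.39 times lower with no overlap (-1.26 ± 0.25, adjusted p = 0.00400; -1.26, adjusted p = 0.0679, with WT libraries 1 and 2 left out). It was the 1 gene of 11 in the eosinophil list that passed, and 7 of the 11 had a positive log2 fold change, with a median of 0.17.

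Genes of megakaryocytes and platelets were higher. Of 17, 12 rose and 0 fell, all 17 had a positive log2 fold change, and the median was 0.64. The summed level was 511 to 755 CPM in WT, and 899, 1008 and 1322 CPM were its lowest, median and highest values in Y665F. Thbs1, thrombospondin 1 of platelet granules, had 162, 127, 191 and 144 CPM in WT and 283, 314 and 451 CPM in Y665F. It was 2.28-fold higher with no overlap (1.19 ± 0.18, adjusted p = 0.000619). The von Willebrand factor gene Vwf rose by 0.95, and the integrin chains Itga2b and Itgb3 by 0.93 and 0.71. After GC correction 8 of the 17 rose, and with WT libraries 1 and 2 left out 3 did, at a median of 0.58.

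Macrophage genes were lower in part. Of 21 monocyte and macrophage genes, 1 rose and 5 fell, with a median of -0.26. Cd163, the receptor that takes up haemoglobin bound to haptoglobin, had 73.2, 65.2, 78.8 and 76.0 CPM in WT and 21.2, 26.4 and 37.3 CPM in Y665F. It was 2.62 times lower with no overlap (-1.39 ± 0.17, adjusted p = 0.000167), and passed with WT libraries 1 and 2 left out (-1.46, adjusted p = 0.00499). Spic, the transcription factor of red pulp macrophages, fell from 85.6 ± 10.7 to 50.3 ± 5.24 CPM (-0.77 ± 0.14, adjusted p = 0.00237), and Vcam1 from 607 ± 24.6 to 372 ± 55.2 CPM (-0.71 ± 0.15). Mertk and Timd4, receptors for the uptake of dead cells, fell by 0.47 and 0.38 on the log2 scale. The member that rose was Ly6c2, which marks inflammatory monocytes and is also a gene of memory CD8+ T cells. After GC correction 7 of the 21 fell, with WT libraries 1 and 2 left out 2 did, and with the replicate number as a block 1 did.

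Where B cell and dendritic cell genes passed the test, they were lower. Of 14 B cell genes 0 rose and 4 fell, with a median of -0.23, and the summed level was 5349 to 6139 CPM in WT and 4135 to 5186 CPM in Y665F. Cr2, the complement receptor of marginal zone B cells and follicular dendritic cells, fell from 1365 ± 182 to 799.9 ± 67.1 CPM (-0.77 ± 0.084, adjusted p = 3.80e-05). Ms4a1, the CD20 gene, fell by 0.47 and Bank1 by 0.46 on the log2 scale. In the Y665H spleens Ms4a1 had 517 to 676 CPM, below every WT library too, while their B cell sum of 4060 to 5985 CPM overlapped WT. Of 10 germinal centre genes 1 fell (Gcsam, -0.56; none with either the GC correction or WT libraries 1 and 2 left out), and of 11 plasma cell genes none passed. Dendritic cells had 5 of 15 genes lower and 0 higher, among them Clec9a (-0.43), Xcr1 (-0.61) and Cadm1 (-0.66), which mark the cross-presenting subset, and Cd209a (-0.73). With WT libraries 1 and 2 left out 1 B cell gene and 1 dendritic cell gene fell, and with 1 factor of unwanted variation (RUVr) in the fit 9 and 8 did.

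Stroma and vessel genes divided between collagens and contractile or reticular cell genes. Of 15, 3 rose and 4 fell. Col1a1, a chain of type I collagen, had 24.3, 27.7, 40.9 and 36.2 CPM in WT and 50.2, 63.3 and 83.1 CPM in Y665F. It was 2.00-fold higher with no overlap (1.00 ± 0.15, adjusted p = 0.000486), and Col1a2 and Col3a1 rose by 0.32 and 0.36. Pdgfra, a receptor of fibroblastic cells, fell from 106 ± 4.07 to 63.9 ± 4.46 CPM (-0.74 ± 0.088, adjusted p = 0.000113), the B cell attractant Cxcl13 fell by 0.66, and the smooth muscle genes Myh11 and Acta2 by 0.51 and 0.37. With WT libraries 1 and 2 left out the count was 1 higher and 2 lower. With the GC correction it was 2 higher and 7 lower, with Col1a1 still among the former (0.73, adjusted p = 2.02e-05).

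No erythroid and no cell cycle gene passed the test. There were 21 of the former, and their summed level was 1655 to 3816 CPM in WT and 1209 to 4388 CPM in Y665F. The 30 cell cycle genes had a median of 0.18 and sums of 2531 to 4511 and 2398 to 5562 CPM. Of 15 stem and progenitor genes, 0 rose and 4 fell, by 0.37 (Meis1) to 0.70 (Hlf) on the log2 scale. None of these passed with WT library 1 left out, alone or with WT library 2, and with the GC correction 1 rose and 1 fell. Of 17 genes of cell stress and tissue dissociation 1 rose, Nr4a1 at 0.48.

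Genes induced by type I interferon were higher. Of 24, 12 rose and 0 fell, with a median of 0.44, and 12 rose with the GC correction as well. Oas2, which senses double-stranded RNA, had 20.2, 22.4, 24.5 and 22.6 CPM in WT and 39.2, 51.4 and 56.8 CPM in Y665F. It was 2.18-fold higher with no overlap (1.13 ± 0.13, adjusted p = 6.42e-05), and passed with WT libraries 1 and 2 left out (1.06, adjusted p = 0.00849). Oas3 was 2.02-fold higher (1.01 ± 0.25, adjusted p = 0.0150; 0.75, adjusted p = 0.310, with those libraries left out). In the Y665H spleens the median was 24.2 CPM for Oas2 and 70.1 CPM for Oas3, against 51.4 and 45.1 CPM in Y665F. Irf7, the factor that amplifies the response, rose by 0.59, and the antiviral genes Mx1, Ifit1 and Oasl1 by 0.44, 0.57 and 0.88. With WT libraries 1 and 2 left out 2 of the 24 passed, at a median of 0.43. Of 24 genes induced by interferon-gamma or of the guanylate-binding family, 1 rose (Gbp11) and 0 fell, with a median of 0.026. Irf1 had 0.029 ± 0.10 and Irf8 -0.078 ± 0.10, and neither passed.

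**Figure D4:**
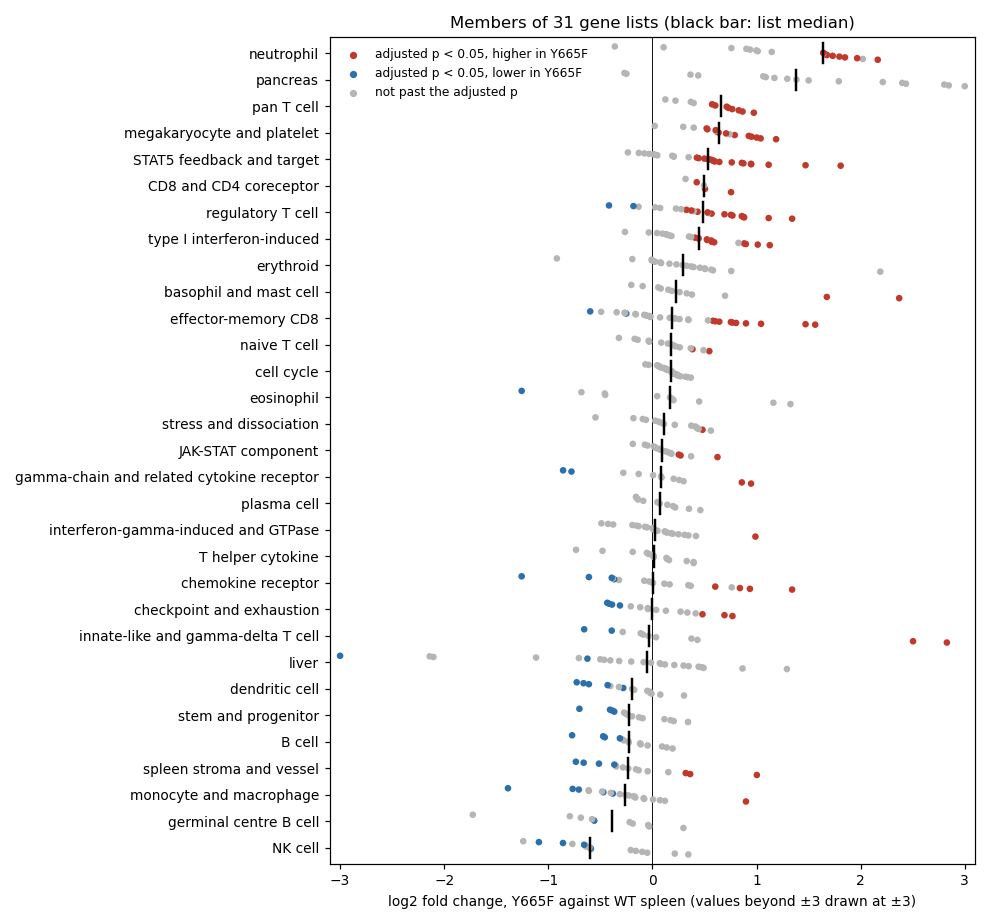
Log2 fold change, Y665F against WT spleen, of the tested members of 31 gene lists, ordered by list median (black bar). Red and blue points passed the adjusted p, grey points did not, and values beyond 3 are drawn at 3. Neutrophil, pan T cell, megakaryocyte and STAT5 target lists lay to the right of 0, and the NK cell list to the left.

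Genes of neighbouring organs were measured as a check on dissection. Liver genes summed to 14.7 to 74.7 CPM in WT, with the highest in library 1, to 202 CPM in Y665F library 4 and to 9.35 to 19.6 CPM in the other Y665F libraries. Alb, the albumin gene, had 22.2, 0.288, 6.13 and 14.8 CPM in WT and 129 CPM in Y665F library 4. Of 24 liver genes 0 rose and 2 fell (Mup20 and Tdo2), with a median of -0.049. Without Y665F library 4 alone 9 fell, at a median of -2.15, and without WT library 1 alone none did, at a median of 0.63. Pancreas genes had none of 17 past the test, with sums of 9.26 to 18.1 CPM in WT and 8.15 to 35.5 CPM in Y665F. Leaving out WT library 1 and Y665F library 4, which had the highest liver sums, left 63 genes called higher and 65 lower.

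**Figure D5:**
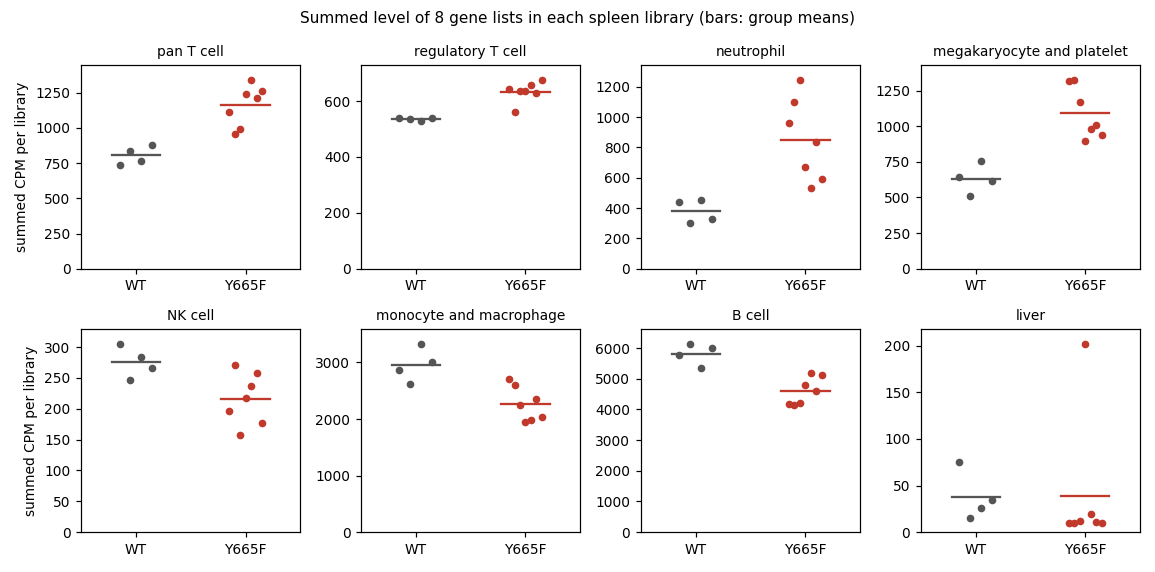
Summed CPM of 8 gene lists in each spleen library (points) with group means (bars), on axes that start at 0. Pan T cell, regulatory T cell, neutrophil and megakaryocyte sums did not overlap between WT and Y665F, B cell sums did not either, and the liver sum was high in Y665F library 4.

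Of all 111 genes called higher, 24 belonged to one of the gene lists, and of the 122 called lower 4 did. The share of all tested genes that the lists hold was not counted, so neither number is read as an excess or a lack. A mean of at least 1 CPM was reached by 64 of the former and 49 of the latter. The largest rise among those was outside the lists, in Drc1 (chr5:30281388-30366695), which encodes a subunit of the dynein regulatory complex of motile cilia. Drc1 had 1.00, 0.468, 0.682 and 0.962 CPM in WT, 8.48, 10.4 and 10.8 CPM in Y665F and 0.244 to 0.577 CPM in Y665H. It was 12.7-fold higher in Y665F than in WT (log2 fold change 3.67 ± 0.21, adjusted p = 2.16e-08, edgeR), and kept its call in each of the 23 settings tried.

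The other genes with the largest rises had lower levels or belonged to groups given above. Rasef, a Rab-family GTPase with EF hands, rose from 0.204 to 0.482 to 1.10 to 2.40 CPM (2.73 ± 0.34), and the non-coding RNA 4933440M02Rik from 0.185 to 0.432 to 1.66 to 2.66 CPM (2.69 ± 0.27). Rag1, the recombinase of developing lymphocytes, had 0.926, 1.80, 1.24 and 1.72 CPM in WT and 4.38, 6.72 and 8.30 CPM in Y665F. It was 4.45-fold higher (2.16 ± 0.37, adjusted p = 0.00142). Sfrp2, a secreted Wnt antagonist, had 0.787 to 1.30 CPM in WT and 3.05 to 4.77 CPM in Y665F (2.06 ± 0.21, adjusted p = 1.76e-05). No overlap between the groups was a condition for naming these 4 genes, so it is not a result about them.

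Where the mean level reached 1 CPM, the 12 largest falls were 2.81 to 4.04 times and involved no member of the lists. Scara5, a receptor for ferritin, had 6.41, 5.33, 5.17 and 4.52 CPM in WT and 0.944, 1.64 and 2.93 CPM in Y665F (-1.63 ± 0.22, adjusted p = 0.000246). Rspo3, a secreted protein that enhances Wnt signalling, was another of the 12 (-1.49 ± 0.25). Spock3, a secreted proteoglycan, had the largest fall, from 2.73 to 3.57 to 0.291 to 1.32 CPM (-2.02 ± 0.27, adjusted p = 0.000246). Adam28, a membrane metalloprotease of lymphocytes, fell from 3.79 ± 0.917 to 1.05 ± 0.452 CPM (-1.86 ± 0.24, adjusted p = 0.000240). Gabrq, a GABA receptor subunit, had 19.9, 23.6, 18.7 and 22.1 CPM in WT and 5.70, 7.57 and 9.85 CPM in Y665F (-1.51 ± 0.21, adjusted p = 0.000308). Also among the 12 were Xlr3b, Tsga13, Adcy2, Sntg1, Greb1 and A930012L18Rik, with log2 fold changes of -1.85, -1.68, -1.61, -1.60, -1.56 and -1.49. Xlr3b belongs to a family of near-identical copies on the X chromosome, so its counts are uncertain, and it did not pass with WT libraries 1 and 2 left out (adjusted p = 0.15).

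Values of the same genes in purified T cells were set beside those of the spleens. In splenic T cells cultured with IL-2 and IL-7 (4 Y665F and 4 WT libraries), 257 of 22313 genes were called higher (1.15%) and 85 lower (0.381%). Those libraries held 2017012 to 27394249 reads on genes and differed from the spleens in cell type and culture, and no difference between the experiments was tested. Scart2 was higher there too, with 5.61 ± 0.898 CPM in WT and 22.5 ± 7.70 CPM in Y665F (2.01 ± 0.43, adjusted p = 0.0155), and so was Scart1 (1.45 ± 0.35, adjusted p = 0.0297). Gzmb was called as well (1.71 ± 0.41, adjusted p = 0.0297), as were Oas2 (2.26 ± 0.42), Oas3 (1.28 ± 0.29) and Thbs1 (1.93 ± 0.39). Cish had 0.61 ± 0.40 and did not pass (adjusted p = 0.386). Drc1 had 38.8 ± 12.6 CPM in WT and 43.9 ± 23.2 CPM in Y665F T cells, with a log2 fold change of 0.19 ± 0.35 (adjusted p = 0.781). Il7r and Cd4, which did not pass in spleen, were called lower in the cultured cells (-1.35 ± 0.23 and -1.16 ± 0.28). Gzma (1.30 ± 0.31), Il12rb2 (1.86 ± 0.30) and the transcription factor gene Irf8 (1.53 ± 0.38), which did not pass in spleen either, were called higher in them. Rn45s was called higher there too (3.85 ± 0.73).

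CD4+ T cells without their own Stat5a and Stat5b, given a vector with Y665F STAT5B or an empty one, formed a further set (3 against 3 libraries). There 279 of 20113 genes were called higher (1.39%) and 197 lower (0.979%). The lack of STAT5 came from a deletion by Cd4-Cre, and the construct from a retrovirus, so the contrast is between a STAT5B with the Y665F change and no STAT5A or STAT5B. Cish (3.77 ± 0.32), Socs2 (5.62 ± 0.34), Il2ra (2.82 ± 0.22) and Foxp3 (1.61 ± 0.48) were called higher, and so were Drc1 (4.43 ± 0.66, adjusted p = 0.000394) and Sfrp2 (2.86 ± 0.45, adjusted p = 0.000587). Scart2 had 0.16 ± 0.71 and did not pass. Of the 272 genes higher in these cells that were tested in spleen, 40 rose in spleen (14.7%) and 20 fell (7.35%), beside 5.63% and 6.59% of all genes. Their median log2 fold change in spleen was 0.084, beside -0.0043 for all genes. Of those 272 genes, 11 were called higher in spleen and 0 lower, beside 111 (0.572%) and 122 (0.628%) of all 19418 genes. Of the 196 genes lower in these cells and tested in spleen, 13 rose (6.63%) and 31 fell (15.8%). Of 256 genes higher in the cultured T cells and tested in spleen, 28 rose (10.9%) and 21 fell (8.20%). The 85 genes lower in the cultured T cells had a like share of rises in spleen, with 9 higher (10.6%) and 6 lower (7.06%). Thbs1 was the single gene called higher in the spleens, the cultured T cells and the null CD4+ cells alike.

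The promoter of Cish is shown because this gene had the largest rise in the STAT5 target list and because it carries the binding motif more than once. The window holds 250 bases before and 50 after the start of the RefSeq transcript, at chr9:107296409-107296708 of GRCm38.p6 on the plus strand. Matches to TTCNNNGAA, a palindrome that reads the same on both strands, are in capitals.
Cish promoter: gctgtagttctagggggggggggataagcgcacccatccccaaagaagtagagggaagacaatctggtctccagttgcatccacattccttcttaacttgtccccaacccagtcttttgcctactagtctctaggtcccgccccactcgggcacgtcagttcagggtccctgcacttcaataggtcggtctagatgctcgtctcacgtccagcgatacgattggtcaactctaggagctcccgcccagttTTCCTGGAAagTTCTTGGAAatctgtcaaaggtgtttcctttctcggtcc
The matches lay at bases 251 to 259 and 262 to 270 of the window. At least 1 match was found in 8.30% of the 32851 promoter windows of the mouse and 2 or more in 0.457%. Of the 83 genes called higher that had a window, 10 held a match (12%), of the 80 called lower 13 did (16.2%), and of all 14069 tested genes with a window 1232 did (8.76%). Cish was the only gene called higher with more than 1. A match of these letters is a description of the sequence and not evidence of binding, which also takes place outside these windows.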

How the data were processed

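Gene-level read counts of 11 spleen libraries (4 WT and 7 Y665F) were compared. Per the labels and the study's methods, total RNA was depleted of ribosomal RNA and sequenced paired-end from stranded libraries. Reads were trimmed with Trimmomatic 0.36, aligned to mm10 (GRCm38) with STAR and counted per gene with HTSeq 0.9.1, and the submitters' processing notes also name SAMtools 1.9, Picard 2.9.2 and FastQC 0.11.9. The authors deposited raw counts per gene symbol for 24421 genes, with no normalization, and between 63.3 and 68.3% of the reads of these 11 libraries were on no gene. The platforms named include more than one instrument, and which library ran on which is not given in the sources used here.

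Genes with at least 10 reads over the 16 spleen libraries (Y665H included) were fitted with edgeR 4.0.16 (TMM factors, glmQLFit and glmQLFTest, R 4.3.3), with the genotype as the group and the contrast Y665F minus WT. Calls were made below an adjusted p of 0.05 (Benjamini-Hochberg) where the log2 fold change was beyond 1 in size. A gene is said to have risen or fallen at the adjusted p alone. SEs were taken from the fold change and its F statistic. Cultured T cells and null CD4+ T cells had fits of their own. The calling script was tested on simulated data. No pair of libraries agreed within counting error. The labels do not say that replicates came from separate litters or days, so p-values measure the spread between these samples.

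Named genes were the 12 called genes with the largest rise and the 12 with the largest fall at a mean of at least 1 CPM and no overlap, up to 4 called members of each of 31 gene lists at that level, and a set chosen for its role, and 6 of these genes are not reported here. Genes given as examples of a list were chosen after their values were seen. The members, lists and rules were chosen with earlier results of these data known. Other settings tried were DESeq2 1.42.0, RLE factors, other filters, WT and Y665F alone, a replicate block, 1 RUVr factor, leaving out each library, no fold minimum and scaling to pan T cell reads. Settings chosen after seeing the data were a lowess offset per library for GC content (known for 96.0% of tested genes), leaving out WT libraries 1 and 2, both together, leaving out WT library 1 and Y665F library 4, and dropping Rn45s and histone genes. Gene positions are those of the GRCm38 annotation, and promoter windows are RefSeq's for GRCm38.p6.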

Additional observations from a re-analysis of the deposited data

Results flagged for a closer look

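Of 178 sets of 4 or 7 library values examined, 12 held a library that lay apart from the rest of its group by Dixon's criterion at 95%, and chance gives about 1 in 20.

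WT library 1 lay apart for Rasef (0.482 CPM against 0.204 to 0.217 in the other WT libraries), Adam28 (5.15 against 3.16 to 3.49), Rspo3 (1.89 against 1.63 to 1.66) and Foxp3 (6.67 against 8.82 to 8.89). This is one of the libraries with the strongest trend with GC content. WT library 3 was low for Socs2 (14.6 against 19.3 to 20.02 CPM) and high for the pancreas list (18.1 against 9.26 to 10.6 summed CPM). WT library 4 was low for Sntg1 (3.41 against 4.21 to 4.30 CPM) and Il12rb2 (19.2 against 20.4 to 20.7 CPM). Each of the 3 called genes whose WT library 1 was high or low, and Foxp3, kept its call with that library left out.

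Among the Y665F libraries, library 4 was high for Alb (129 against 0.156 to 7.09 CPM) and for the liver list (202 against 9.35 to 19.6 summed CPM). Library 3 was high for the pancreas list (35.5 against 8.15 to 14.5 summed CPM). Library 2 was low for the regulatory T cell list (561 against 628 to 674 summed CPM), yet above every WT library.

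Gabrq differed in order between the 2 experiments. It was lower in every Y665F spleen than in any WT spleen, and in T cells cultured with IL-2 and IL-7 every Y665F library was above every WT library (log2 fold change 1.17, adjusted p = 0.290, edgeR, which did not pass). Its level in the cultured T cells was 0.374 ± 0.0873 CPM in WT and 0.959 ± 0.608 CPM in Y665F, so their order rested on few reads. The difference between the experiments was not tested.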

How the results depend on the processing

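No paired value belongs to the design, since the labels only number the libraries: deviations of WT and Y665F libraries with the same number correlated at -0.20, -0.11, 0.15 and -0.034. With the number as a replicate block, 103 genes were called, 59 higher and 44 lower, against 233, 111 and 122, and 18 members of the gene lists against 28. Leaving out WT libraries 1 and 2 gave 78 calls (37 higher, 41 lower, 11 list members), and with the GC correction as well 82 (44, 38 and 13). Leaving out WT library 1 and Y665F library 4 gave 128 (63, 65 and 15). Without the fold minimum there were 2373 (1094 and 1279). Leaving out 1 library at a time gave 137 to 351 calls, 66 to 206 higher and 71 to 149 lower. The lowest counts were without WT library 1 (137) or WT library 2 (150) and the highest without WT library 3 (351). List members called then ranged from 14 to 36, from 14 without either of WT libraries 1 and 2 to 36 without Y665F library 4. RLE factors, DESeq2, the GC correction, both other filters, the 2 genotypes alone, the RUVr factor and the removal of Rn45s and histone genes kept the counts of calls and of list members called within 1.5 times. Without the fold minimum the RUVr factor gave 4365 genes (2180 higher and 2185 lower), DESeq2 3260 (1740 and 1520), the block 447, WT libraries 1 and 2 left out 318, and leaving out 1 library 935 (WT library 1) to 3393 (WT library 3). In cultured T cells 12 named genes were called, and 8 with the 2 genotypes alone.

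Of the 58 named genes 49 passed the adjusted p. Of these, 31 passed under all 23 settings, 45 with the GC correction and 33 with WT libraries 1 and 2 left out. The values that changed sign follow. With the GC correction they were Stat5a (-0.0067), Klrd1 (0.16) and Irf1 (-0.047). With the block they were Klrd1 (0.0049), Irf1 (-0.025) and Alb (-0.64). Without WT libraries 1 and 2 they were Klrd1 (0.071) and Irf1 (-0.080), and with the GC correction as well Klrd1 (0.13) and Irf1 (-0.073). Without WT library 1 and Y665F library 4 it was Alb (-2.02). Per T cell reads they were Il7r (-0.32), Cd8a (-0.015), Cd4 (-0.21), Irf1 (-0.51), Bcl2 (-0.077) and Ccr7 (-0.16). Leaving out 1 library turned the sign of Gzma (-0.30 to 0.00080 over such fits), Klrd1 (-0.076 to 0.032), Irf1 (-0.028 to 0.11), Irf8 (-0.14 to 0.0020) and, without Y665F library 4, Alb (-2.62 to 1.46), none of which had passed the test. The cause of these shifts was not tested. At these depths and with 4 WT libraries, genes under about 1 CPM rested on few reads.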
